A study of Mus musculus with 11 samples.

Results

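The guanylate binding proteins examined here are Gbp2 to Gbp9, 8 of the 55486 genes in the count table, taken by gene symbol. Their RNA was read with Smart-seq2, which amplifies whole transcripts from few cells, in blood eosinophils. The sort kept live cells of high side scatter that were positive for CD45, F4/80 and CD11b, negative for CD3 and low in Ly6g. All mice were FVB/N and carried metastatic disease from mammary tumours. The 7 treated mice had been given cisplatin, a DNA-crosslinking drug, with anti-PD1 and anti-CTLA4, antibodies that block checkpoint receptors of T cells, and the 4 control mice had been given control antibody. Blood came from heart puncture 21 days into treatment, and each library came from a different mouse. No group received cisplatin or the antibodies alone, so the effects of the 3 agents cannot be told apart.

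Guanylate binding proteins are large GTPases of the dynamin superfamily. Interferon gamma, made by activated T cells and natural killer cells, induces their genes, in part through the transcription factor IRF1. The proteins assemble on bacteria and on the vacuoles that hold intracellular microbes, open these membranes, and help to start inflammasomes, and several are anchored in membranes by an isoprenyl lipid.

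The members lie in 2 clusters. In GRCm38, Gbp5 (chromosome 3, 142493978 to 142522344), Gbp7 (142530342 to 142550149), Gbp3 (142560026 to 142573209) and Gbp2 (142620602 to 142638008) follow each other on the plus strand of chromosome 3. Gbp8 (chromosome 5, 105014150 to 105139540), Gbp9 (105077630 to 105139539), Gbp4 (105115767 to 105139586) and Gbp6 (105270702 to 105293698) lie on the minus strand of chromosome 5. The gene models of Gbp8, Gbp9 and Gbp4 overlap. RefSeq promoter sequence (GRCm38.p6) was found for 4 of the 8 members, those of chromosome 3. The 250 bases before the start of each are shown because they carry the elements through which interferons are known to act. Capitals mark matches to the gamma-activated site, TTCNNNGAA, which reads the same on both strands, and to a core of the interferon-stimulated response element (GAAA, any 2 bases, GAAA) on either strand.
Gbp2, chr3:142620413-142620662, plus strand: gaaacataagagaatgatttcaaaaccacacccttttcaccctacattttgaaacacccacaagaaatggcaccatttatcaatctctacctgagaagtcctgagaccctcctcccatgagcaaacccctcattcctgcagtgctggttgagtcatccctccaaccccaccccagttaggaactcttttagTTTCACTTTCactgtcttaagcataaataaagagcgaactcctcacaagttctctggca
Gbp3, chr3:142559794-142560043, plus strand: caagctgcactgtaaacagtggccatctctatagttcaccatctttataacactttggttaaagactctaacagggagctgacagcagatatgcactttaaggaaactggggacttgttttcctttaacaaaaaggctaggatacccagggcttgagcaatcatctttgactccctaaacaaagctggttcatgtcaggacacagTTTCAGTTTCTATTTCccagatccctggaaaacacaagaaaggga
Gbp5, chr3:142496684-142496933, plus strand: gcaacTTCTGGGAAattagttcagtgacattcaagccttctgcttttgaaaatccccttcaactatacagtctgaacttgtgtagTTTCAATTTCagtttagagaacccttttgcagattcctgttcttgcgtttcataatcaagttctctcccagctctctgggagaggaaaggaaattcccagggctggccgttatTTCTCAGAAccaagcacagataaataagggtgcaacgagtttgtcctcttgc
Gbp7, chr3:142530086-142530335, plus strand: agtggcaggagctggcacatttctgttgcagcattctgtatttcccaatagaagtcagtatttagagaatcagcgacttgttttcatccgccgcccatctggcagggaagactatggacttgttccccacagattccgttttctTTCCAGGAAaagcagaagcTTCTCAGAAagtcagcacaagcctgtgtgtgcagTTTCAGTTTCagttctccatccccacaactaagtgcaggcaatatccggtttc

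Each of these 4 promoters held at least 1 match to the response element core, which 2.98% of 32851 RefSeq promoter windows of the same length held. In Gbp2 the match lay 59 to 50 bases before the start and in Gbp7 53 to 44 bases before it. In Gbp3 a pair of overlapping matches spanned 45 to 30 bases before the start, and in Gbp5 the match lay farther off, at 165 to 156 bases. Gbp5 and Gbp7 each also held 2 matches to the gamma-activated site, a motif found in 7.02% of all windows, and both motifs stood together in 0.332% of windows. A second RefSeq start of Gbp3 had no match in its window. These are matches of letters, and no binding was measured.

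Reads of some members can be confused with those of other genes. Of the 50-base words in the transcripts of each member, the share that also occurred in a transcript of another gene was 1.4% for Gbp5, 2.0% for Gbp2, 3.8% for Gbp3, 7.8% for Gbp4, 8.0% for Gbp9, 12.7% for Gbp7, 18.1% for Gbp8 and 70.7% for Gbp6. For Gbp7 most of this was Gm43802, a gene model that overlaps 637 of its exon bases on the same strand and had 0 counts in all libraries. Those 0 counts do not show how reads over the shared bases were counted. Gbp6 shared 65.0% of its words with Gm43302, a gene model that overlaps it, and 45.9% with Gbp10. The level of Gbp6 is therefore uncertain, while those of Gbp2, Gbp3 and Gbp5 rest mostly on sequence of their own.

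**Figure D1:**
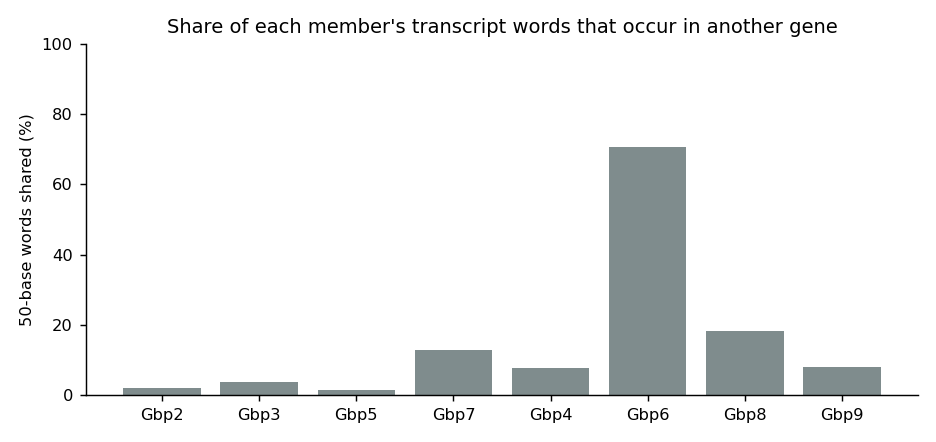
Share of the 50-base words in the transcripts of each member that occur in transcripts of another gene (bars, percent, GENCODE M21). Gbp6 stands apart at 70.7%, and the other 7 members lie between 1.4% and 18.1%.

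Libraries held 5356118 to 8016658 counts in the treated and 3733156 to 6721060 in the control group. Eosinophil markers were present throughout, with a summed level of 4170 to 10700 counts per 1000000 counts of the library (CPM) in treated and 4050 to 11300 in control libraries, and none of the 9 was at 0 in a group. Transcripts of other blood cells were present too. Neutrophil markers (9 genes) summed to 5750 to 14000 and 6530 to 12800 CPM, monocyte and macrophage markers (12) to 2170 to 18200 and 995 to 12700, and B cell markers (10) to 1450 to 8980 and 542 to 3930. None of these genes was at 0 throughout a group. Retnlg alone averaged 9320 CPM of the neutrophil sum over the 11 libraries, followed by Mmp9 at 476 CPM, and Ly6g averaged 3.04 CPM. Erythroid markers (8) summed to 12300 to 46900 CPM in treated libraries, to 294000 and 210000 in control 3 and control 4, and to 11000 and 1710 in control 1 and control 2. T cell (9), natural killer cell (8), dendritic cell (7) and basophil (6) markers each summed to at most 89.2 CPM, except basophil markers at 436 CPM in 1 treated library. Most of that 436 CPM was Cpa3, and the basophil marker Fcer1a had 0 counts in all treated libraries. Cd3e and Cd8a were at 0 in all controls. Platelet markers (8) summed to 728 to 2990 and 158 to 6950 CPM. Control 3 and control 4 had only 10775 and 11263 genes with counts, while no other library had under 12639, and results that move are given without this pair too.

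In control libraries 4 members made up nearly all of the RNA of the 8 members. Shares of the family are given here as parts of that 8-member sum. Levels of single members are given as CPM scaled with TMM, a normalisation of library size, and levels of different genes are compared as CPM per kb of exon. On that length-scaled level Gbp2 took 36.9% ± 16.5 (SD, n = 4) of the family in control libraries, Gbp9 30.4% ± 6.18, Gbp7 17.4% ± 11 and Gbp3 14.8% ± 6.23. In treated libraries the shares were 32.2% ± 8.53 (SD, n = 7) for Gbp2, 25.9% ± 11 for Gbp9, 20.6% ± 9.51 for Gbp7 and 18.3% ± 8.34 for Gbp3. The same 4 genes together held 92.9% to 99.7% of the 8-member sum in treated and 98.3% to 99.9% in control libraries. Gbp2b, a row of the family outside the members, is not in this sum. It stood at 8.11 CPM per kb in treated 2 and 10.9 in treated 3, where the 8 members summed to 68.4 and 87.4. Its mean was 3.91 CPM per kb in treated and 0.0501 in control libraries.

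The order of these 4 was not fixed. Over all 11 libraries the length-scaled level was 39.8 ± 28.7 CPM per kb (SD, n = 11) for Gbp2, 29.2 ± 12.3 for Gbp9, 20.1 ± 14.6 for Gbp3 and 19.7 ± 8.65 for Gbp7. Gbp2 exceeded Gbp9 in 6 of 11 libraries, and in 3 of 11 where coding length was used in place of exon length, so the order of this pair depends on the gene model. Gbp9 exceeded Gbp3 in 8 of 11 libraries, and in 10 of 11 by coding length. Gbp3 exceeded Gbp7 in 5 of 11, and in 2 of 11 by coding length, so this order depends on the gene model too. A clear step followed, since Gbp7 stood above Gbp4 (1.45 ± 1.53 CPM per kb) in 11 of 11 libraries. Gbp8, at 0.618 ± 1.01, and Gbp5, at 0.567 ± 0.884, did not differ beyond their spread, and Gbp6 came last with 1 read in all.

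**Figure D2:**
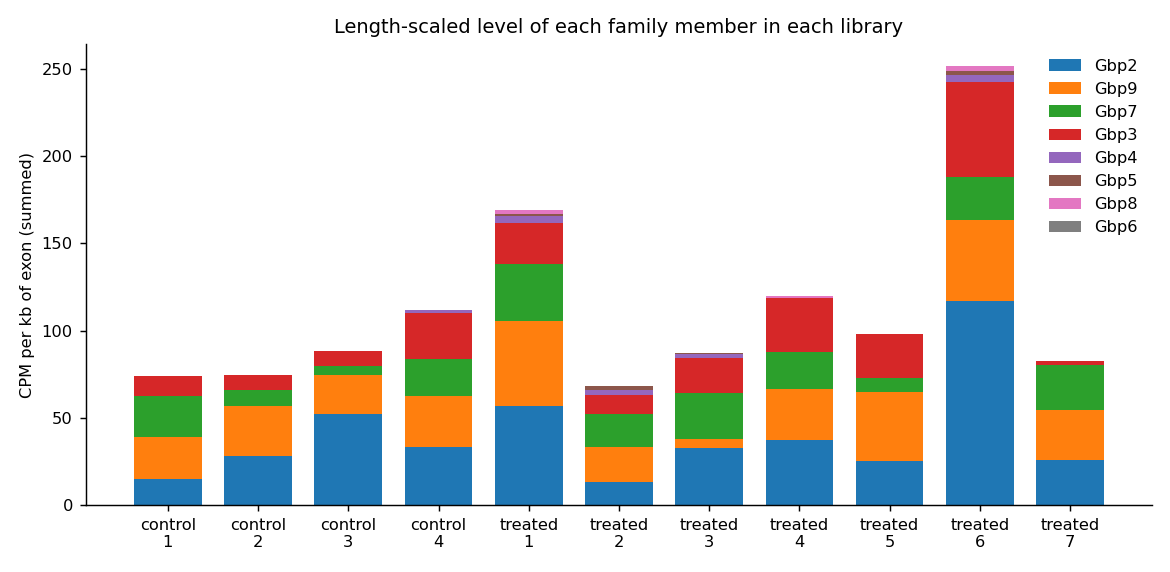
Length-scaled level of each member (CPM per kb of exon) stacked by library, with the 4 control libraries on the left and the 7 treated libraries on the right. Gbp2, Gbp9, Gbp7 and Gbp3 fill nearly the whole bar in every library, and treated 6 (251 CPM per kb in all) and treated 1 (169) stand highest.

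The comparison between groups asked how the combination of cisplatin and both antibodies altered these genes in blood eosinophils. Among the members of low abundance, Gbp5 had counts in 6 of 7 treated and 0 of 4 control libraries and Gbp8 in 6 of 7 and 1 of 4, while Gbp4 had counts in all 11. The 4 abundant members were expressed in every library and their groups overlapped widely. In edgeR's quasi-likelihood test with Benjamini-Hochberg adjustment over 11389 genes, 0 of the 6 members that passed the filter on low counts were called, as were 0 genes of all (percent called 0). With no adjustment 1 of 6 members, Gbp5, had a p under 0.05, against 6.82% of all genes tested or 3.7% in the higher direction. DESeq2 called 1 member, Gbp5, against 0.611% of the genes it tested, or 0.441% in the higher direction. All 6 had a fold change above 0, as did 51.8% of all genes, with a median log2 fold change of 0.71 against 0.03 for all genes. The median is the same with Gbp5 at its lower bound, as it had to be, since Gbp5 is the highest of the 6 at either value. Gbp5 passed the filter through treated libraries alone, so it could differ in 1 direction only. In 0 of the 8 members did every treated library exceed every control library, which 0.509% of tested genes did. In all 6 tested members the highest treated library exceeded the highest control, as in 54.8% of tested genes, in a comparison of 7 libraries with 4. Without control 3 and control 4, 7 members were tested, 0 were called, and the median was 1.31. All 7 lay above 0, but Gbp5 and Gbp8 had 0 counts in both remaining controls and could lie on that side only. Of all genes 7165 of 13012 then lay above 0, with a median of 0.10.

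**Figure D3:**
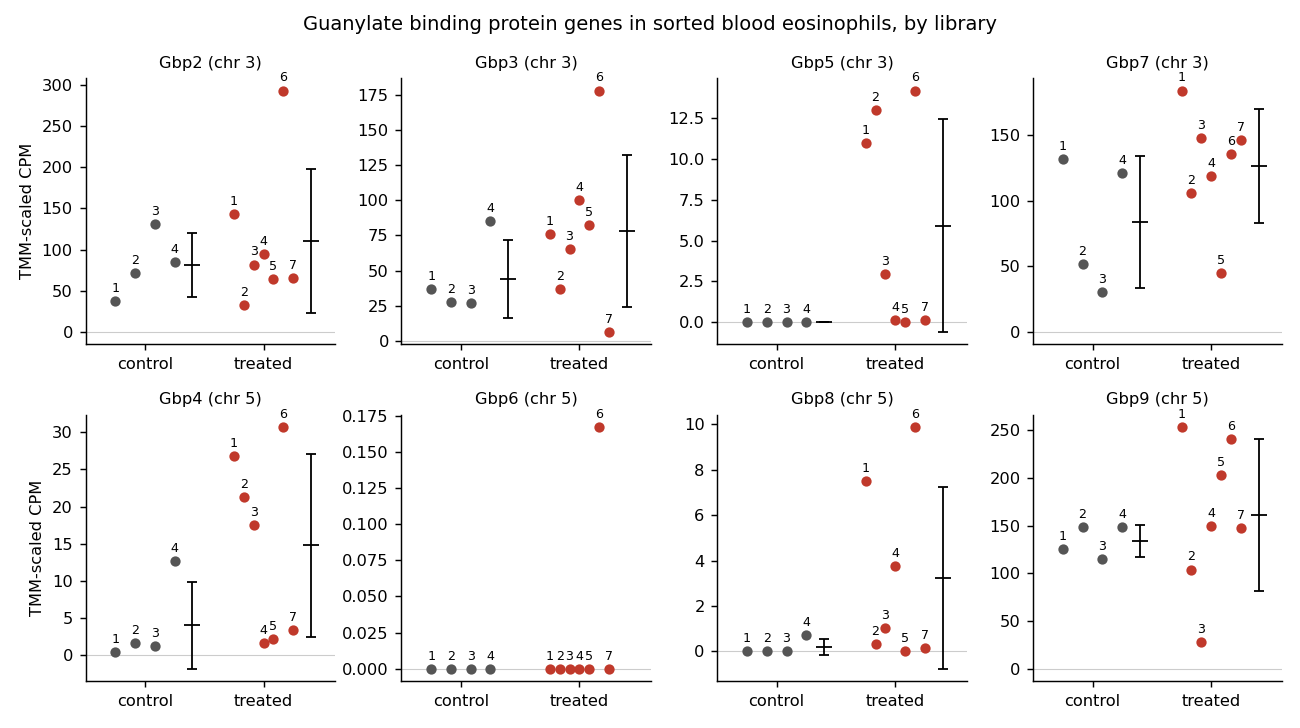
TMM-scaled CPM of each member in each library, numbered by replicate (grey, 4 control; red, 7 treated), with the group mean and SD as a bar to the right, left out for Gbp6. Treated 6 is the highest library for Gbp2, Gbp3, Gbp4, Gbp5 and Gbp8, and control values of Gbp9 lie close together, between 115 and 148 CPM.

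Gbp5, which promotes assembly of the NLRP3 inflammasome, had 0 counts in all 4 control libraries. In treated 1 to treated 7 it had 89, 82, 20, 1, 0, 85 and 1 counts, or 11, 13.0, 2.94, 0.118, 0, 14.2 and 0.137 CPM. Treated 1, treated 2 and treated 6 were thus high, treated 3 was intermediate, and treated 4, treated 5 and treated 7 could not be told from the controls, where 0 counts in control 3 alone allow up to 1.2 CPM. The treated mean of 5.91 ± 6.52 CPM (SD, n = 7) was at least 39.8-fold higher than the control group, set at a floor of 3 counts over that group (0.149 CPM), which covers counting error only. The adjusted p was 0.626 with edgeR and 0.0346 with DESeq2. limma-voom gave an adjusted p of 0.724, and edgeR gave 0.495 without control 3 and control 4. Without treated 1, treated 2, treated 3 or treated 6 the gene no longer passed the filter and was not tested.

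Gbp4 had counts in every library. Control 1 to control 4 stood at 0.38, 1.56, 1.20 and 12.7 CPM, and treated 1 to treated 7 at 26.8, 21.3, 17.5, 1.53, 2.17, 30.7 and 3.29 CPM. Treated 1, treated 2, treated 3 and treated 6 exceeded all controls, and the other 3 treated libraries fell within the control range. The libraries highest in Gbp4 were also the 4 highest in Gbp5, and the genes lie on different chromosomes. For Gbp4 edgeR gave 1.92 ± 1.12 as log2 fold change (SE), with adjusted p = 0.805. It rose to 3.84 without control 4 (adjusted p = 0.701) and to 3.96 without control 3 and control 4 (adjusted p = 0.458).

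Gbp8 had 2 counts in control 4 and 0 in the other controls. The treated libraries had 61, 2, 7, 32, 0, 59 and 1 counts, or 7.53, 0.316, 1.03, 3.77, 0, 9.88 and 0.137 CPM. Treated 1, treated 4 and treated 6 held most of the signal, so treated 4 was high here and low in Gbp4 and Gbp5. Summed over each group, the treated level was 32.8 times the control level (95% exact interval 8.94 to 273, counting error only). Gbp8 did not pass the filter. With no filter its adjusted p was 0.477 in edgeR, and DESeq2 gave 0.259. Without control 4 no control count remained.

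Gbp6 had 1 read, in treated 6, and its neighbours Gbp10 (7 reads, in treated 1 and treated 6) and Gm43302 (0 reads) added little. Gbp6 shares most of its sequence with other genes, so reads that matched several of them may not have been counted, and absence of Gbp6 RNA cannot be read from these values.

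Of the abundant members, Gbp2, which is isoprenylated and binds parasite vacuoles and bacteria, had levels of 37.8, 71.7, 131 and 84.7 CPM, in the order control 1 to control 4. In treated 1 to treated 7 it stood at 143, 33.2, 82.0, 94.8, 64.2, 293 and 65.6 CPM. Treated 6 was far above all other libraries, treated 1 was just above the highest control, and the remaining 5 lay within or below the control range. The means were 111 ± 87.2 (SD, n = 7) and 81.4 ± 38.8 CPM (SD, n = 4). On the log2 scale edgeR put the difference at 0.45 ± 0.50 (SE), with adjusted p = 0.934. Without treated 6 it was -0.01, and without control 3 and control 4 it was 1.06 (adjusted p = 0.664).

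Gbp3 stood at 36.9, 27.6, 26.8 and 85.4 CPM in the controls and at 76.3, 36.8, 65.1, 99.9, 82.6, 178 and 6.31 CPM in the treated libraries. Treated 4 and treated 6 exceeded all controls, and treated 7 lay below all of them. The treated values spanned a 28.2-fold range, against 3.18-fold in the controls. The log2 fold change of Gbp3 was 0.82 ± 0.62 (SE), with adjusted p = 0.879 in edgeR. It was 0.48 without treated 6, 1.36 without control 4 and 1.31 without control 3 and control 4.

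Gbp7, which has been linked to NADPH oxidase assembly and autophagy, varied as much among controls as among treated mice. The controls stood at 132, 51.6, 30.5 and 121 CPM and the treated libraries at 184, 106, 148, 119, 45.1, 136 and 146 CPM. Treated 1, treated 3, treated 6 and treated 7 exceeded all controls, and only treated 5 fell below control 2. The log2 fold change of Gbp7 was 0.59 ± 0.41 (SE), with adjusted p = 0.859 in edgeR. It was 0.34 without control 3 and 0.90 without control 1.

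Gbp9 was the most even member among controls, at 125, 148, 115 and 148 CPM, a 1.29-fold range. The treated libraries spread over an 8.89-fold range on both sides of these values, at 253, 104, 28.4, 150, 203, 241 and 147 CPM. Treated 1, treated 5 and treated 6 were well above the controls, and treated 2 and treated 3 were below all of them. The log2 fold change of Gbp9 was 0.26 ± 0.42 (SE), with adjusted p = 0.951 in edgeR. It was 0.46 without treated 3 and 0.15 without treated 1 or treated 6. Because Gbp9 shares its first exon bases with Gbp4 and Gbp8, the 3 were also summed, which gave 179 ± 86.1 CPM in treated (SD, n = 7) and 138 ± 20.9 in controls (SD, n = 4), a log2 fold change of 0.37 with adjusted p = 0.926 in edgeR.

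**Figure D4:**
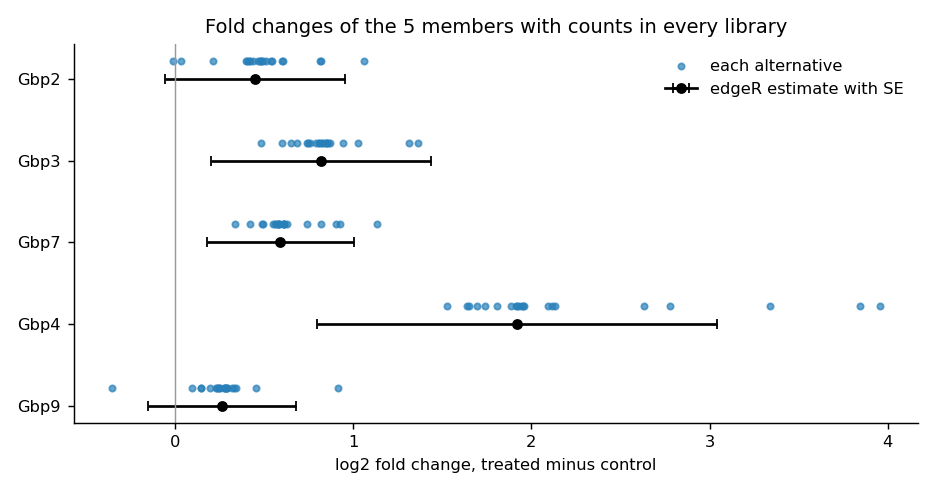
Log2 fold change, treated minus control, of the 5 members with counts in all 11 libraries (black, edgeR estimate with SE), and the value under each alternative setting (blue). Estimates lie above 0 for all 5, and settings below 0 occur for Gbp2 and Gbp9.

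Tested members spread widely between treated mice. The median SD of log2 values (CPM + 1) was 1.27 in treated and 0.749 in control libraries for the 6 members, beside 0.688 and 0.878 over all genes tested. Gbp5, at 0 counts in all controls, enters the control value with an SD of 0. Immunity-related GTPases had 1.21 and 0.97, and type I interferon genes 1.3 and 1.44. Genes of the interferon gamma signal had 0.544 and 0.741, and other genes induced by interferon gamma 0.507 and 0.466. The mice that were high differed by member. Treated 6 ranked first of 7 for Gbp2, Gbp3, Gbp4, Gbp5 and Gbp8, and treated 1 first for Gbp7 and Gbp9. Treated 5 had rank 7 for Gbp5, Gbp7 and Gbp8 and rank 3 for Gbp3 and Gbp9, and treated 3 had rank 7 for Gbp9 and rank 2 for Gbp7.

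Marker levels of other cells moved in part with these values. Treated 6 had the highest monocyte and macrophage sum (18200 CPM) of all libraries, a sum in which Lyz2 weighs most. Treated 1, with the second highest family sum, had 5200 CPM of these markers, below the treated median of 6760, and control 3 had 12700 CPM with 0 counts of Gbp5. The lowest sums were 995 CPM in control 2 and 2170 in treated 7. Of the 12 markers, 9 had a fold change above 0 and 0 were called by edgeR, and without control 3 and control 4 all 12 were above 0, with a median log2 fold change of 2.48. Other marker lists shifted too. B cell markers had 9 of 10 above 0 (median 1.62), whereas all tested neutrophil, erythroid and platelet markers lay below 0 (medians -1.30, -2.71 and -1.76). Without control 3 and control 4 the medians were 2.57 for T cell, 2.84 for natural killer cell, 4.50 for dendritic cell, 2.54 for erythroid and 3.12 for platelet markers, beside 1.31 for the members. Medians in that setting were 0.963 for B cell, 0.128 for basophil, -0.076 for eosinophil and -0.215 for neutrophil markers. In any list, a gene with 0 counts in both remaining controls could lie above 0 only. The part of other cells in the levels of the family was not tested, and in bulk RNA more cells of a type and more RNA per cell cannot be told apart.

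Of the other rows of the family, Gbp2b, once named Gbp1, was also rare in controls. It had 4 counts in control 2 and 0 in the other controls, and 25, 145, 209, 104, 0, 46 and 4 counts in treated 1 to treated 7. The means were 11 ± 11.8 CPM (SD, n = 7) and 0.141 ± 0.283 (SD, n = 4), with adjusted p = 0.626 in edgeR and 0.0281 in DESeq2. Its highest libraries were treated 3 and treated 2, whereas treated 6 led for Gbp5. Gbp11 averaged 2.95 ± 1.68 CPM over treated libraries (SD, n = 7) and 1.64 ± 1.42 in controls (SD, n = 4), with adjusted p = 0.940 in edgeR.

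The ligand was not seen, with 0 counts of Ifng in all 11 libraries. Of the 10 tested genes that carry its signal 8 had a fold change above 0 and 2 below, and 0 were called (median log2 fold change 0.28). Without control 3 and control 4 the count was 10 of 10 and the median 0.77. Ifngr1, its binding receptor chain, averaged 621 ± 301 CPM over treated libraries (SD, n = 7) and 511 ± 246 over controls (SD, n = 4), and the kinase Jak1 at 569 ± 149 and 470 ± 80.6 CPM. Genes with an unadjusted p under 0.05, named after their values were seen, included the kinase Jak2 (81.0 ± 26.8 and 39.2 ± 23.0 CPM) and the transcription factor Irf2 (111 ± 8.02 and 72.6 ± 23.2 CPM), with adjusted p of 0.626 and 0.628 in edgeR.

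Immunity-related GTPases, which act with guanylate binding proteins on pathogen vacuoles, had a fold change above 0 in 6 of 6 tested genes, and 0 were called (median 0.93). Igtp averaged 161 ± 89.3 CPM over treated libraries (SD, n = 7) and 109 ± 41.6 over controls (SD, n = 4), and Irgm1 at 91.6 ± 79.0 and 49.9 ± 16.9 CPM. Irgm2 alone had an unadjusted p under 0.05 (83.0 ± 41.6 and 34.2 ± 4.20 CPM, adjusted p = 0.626, edgeR). The median of the 7 genes tested without control 3 and control 4 was 2.41. The 8 genes of this list summed to 1110 CPM in treated 6 and 679 in treated 1, and to 164 to 338 in the other libraries. The same 2 mice had the highest sums of the guanylate binding proteins, 1010 and 709 CPM.

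**Figure D5:**
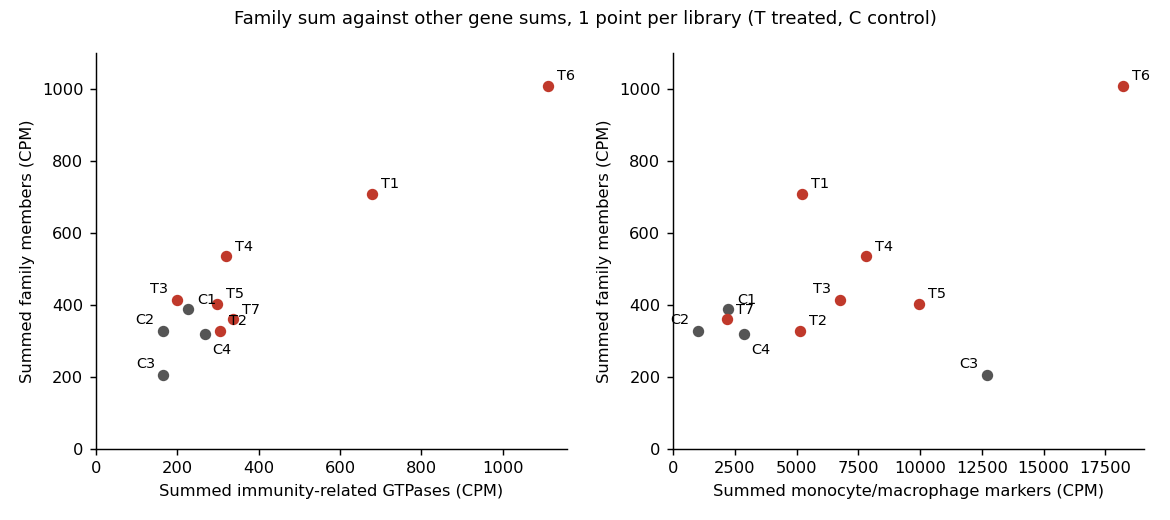
Summed CPM of the 8 members (vertical) against the summed CPM of 8 immunity-related GTPases (left) and 12 monocyte and macrophage markers (right), 1 point per library (T, treated; C, control). Treated 6 and treated 1 are highest in both GTPase families. Control 3 has 12700 CPM of monocyte and macrophage markers and a family sum of 204 CPM, which is 305 CPM after TMM scaling. Lyz2 alone averaged 4350 CPM of the marker sum over the 11 libraries.

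Other genes of the response did not move as 1 block. Of the type I interferon genes tested 7 were above 0 and 6 below (0 of 13 called), and Rsad2, an antiviral enzyme, averaged 197 ± 63.7 CPM over treated libraries (SD, n = 7) and 990 ± 1240 over controls (SD, n = 4), while Irf9 stood at 131 ± 65.1 and 90.3 ± 27.5 CPM. Without control 3 and control 4, 13 of 13 lay above 0 (median 1.35), up from a median of 0.30. Of the other genes induced by interferon gamma 6 of 6 were above 0 (median 0.22, 0 called), among them the immunoproteasome subunits Psmb8 (311 ± 95.2 and 259 ± 38.9 CPM) and Psmb10 (210 ± 33.2 and 203 ± 20.5 CPM). With control 3 and control 4 left out this became 7 of 8, with a median of 0.63. Over all libraries Ciita, the activator of MHC class II genes, named after its values were seen, had the highest log2 fold change of the 6, 1.10 (adjusted p = 0.828, edgeR).

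Downstream partners were also listed. Of 8 inflammasome genes 3 were above 0 and 5 below (median -0.23, 0 called). Gsdmd, whose product forms membrane pores, averaged 312 ± 62.8 CPM over treated libraries (SD, n = 7) and 380 ± 63.3 over controls (SD, n = 4), and Casp1 at 82.2 ± 34.5 and 52.2 ± 24.6 CPM. Casp4, the receptor of cytosolic lipopolysaccharide, was the 1 gene with an unadjusted p under 0.05 (24.7 ± 13.8 and 6.72 ± 5.61 CPM, adjusted p = 0.628, edgeR). Of the genes of ATG8 conjugation, which directs these GTPases to membranes, 2 of 10 were above 0 and 8 below (median -0.28, 0 called), with Map1lc3b at 544 ± 178 and 638 ± 187 CPM and Gabarap at 388 ± 28.9 and 473 ± 105 CPM. Its 1 gene with an unadjusted p under 0.05 was Gabarapl2 (75 ± 15 and 182 ± 126 CPM, adjusted p = 0.626, edgeR). Of 6 prenylation genes 3 were above and 3 below 0 (0 called), with Fnta, a farnesyltransferase subunit, at 109 ± 30.2 and 55.4 ± 41.6 CPM and Zmpste24 at 52.6 ± 7.07 and 47.9 ± 31.9 CPM. These partner lists turned with the choice of controls. Without control 3 and control 4 the inflammasome genes had 5 of 8 above 0 (median 0.96), the conjugation genes 5 of 10 (median 0.02) and the prenylation genes 1 of 6 (median -0.24), with 0 called.

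Among 7740 other genes with a mean of at least 10 CPM, those whose log2 values over the 11 libraries were most like the mean standardised profile of the 6 tested members were Sppl2a, an intramembrane protease (Pearson r 0.871), the MHC class I gene H2-K1 (0.863), Trp53inp1 (0.855), Oas2, an antiviral synthetase (0.852), and the transcription factor Fli1 (0.84). Each gene and the profile are read from the same libraries, which differ in depth and cell makeup, so the measure is a description only. H2-K1 averaged 1460 CPM over treated and 1040 over control libraries, and Oas2 15.4 and 0.571 CPM, with adjusted p of 0.75 and 0.708 in edgeR.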

How the data were processed

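The table the authors deposited holds unnormalised counts for 11 libraries, by Ensembl gene. The tools listed by the submitters' processing notes are HISAT2 2.10, SAMtools 1.15.1 and bcl2fastq 2.20.0.422, and the build is GRCm38. Which program counted, with which strand setting and annotation, is not stated in these notes or labels, and similar or overlapping genes may have had reads split, shared or dropped. Of 55486 genes, 55140 matched GENCODE M21, which gave exon lengths and shared words. One row that names no gene held 0 counts.

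The contrast was fitted with edgeR 4.0.16 in R 4.3.3 (robust quasi-likelihood test, TMM, filterByExpr, Benjamini-Hochberg over 11389 genes, threshold 0.05), and the code was tested on simulated data. SEs were derived from the F statistic. Alternatives used DESeq2 1.42.0, limma 3.58.1 (voom), other scaling, filters and libraries. The identifier letters and the summed genes were added after seeing the data. Within groups no 2 libraries agreed within sampling noise (chi-square per gene 59.2 or more).

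The members and lists were chosen with earlier results of these data known. Named were all members, the 2 most abundant detected genes of each pathway list, any list gene past the threshold (none) and the 5 genes most like the members. Reads had no molecular identifiers, so intervals and floors cover counting error only. List genes outside this rule are given only in counts and medians, and the result of 1 further item is not reported here.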

Additional observations from a re-analysis of the deposited data

Results flagged for a closer look

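Of 12 sets made of 1 member and 1 group, 2 held a library set apart from the rest by the size of its gap. Chance flags about 1 in 20 sets of normally distributed values, and whether these CPM have that shape was not checked. Gbp2 stood at 293 CPM in treated 6, and the next treated library stood at 143 CPM. Gbp4 stood at 12.7 CPM in control 4, and the next control stood at 1.56 CPM.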

How the results depend on the processing

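Counts of genes called by edgeR stayed at 0 in both directions under all settings of scaling, filter, block and library and with limma-voom, whereas DESeq2 called 57 genes higher and 22 lower. For single members, 2 directions turned, that of Gbp2 to -0.013 without treated 6 (range without single libraries -0.013 to 0.82) and that of Gbp9 to -0.35 with a replicate block. No member was called in any setting except Gbp5 with DESeq2 (log2 fold change 7.13, adjusted p = 0.0346). Over all settings run for them, the log2 fold change ran from 0.484 to 1.36 for Gbp3, from 1.53 to 3.96 for Gbp4, and from 0.338 to 1.14 for Gbp7. The cause of these shifts was not tested. The labels do not state that replicate numbers pair the libraries. Deviations from the group means correlated at -0.11 to 0.022 over the 4 pairs of equal number, too few to settle whether mice were paired. Under the replicate block 0 genes were called. Sample identifiers in the table's header begin with 19 in all treated and 20 in all control libraries, so whatever these digits mark cannot be told apart from treatment. The letters that follow are KDV in treated 1 and all controls and VIS in the other treated libraries. With these letters as a covariate the contrast rests on treated 1, all 6 tested members stayed above 0, and 0 genes were called. Gbp8 was tested only with no filter, with DESeq2 or where control libraries were left out, and Gbp6 was not tested. Scaling with DESeq2 size factors or the upper quartile shifted the median gene by -0.012 and -0.009.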
